A study of Homo sapiens with 2 samples.

Results

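The BTG and TOB antiproliferative genes were described here by the RNA peaks that lay on them. The members were BTG1, BTG2, BTG3, TOB1 and TOB2, chosen because their proteins bind the CNOT7 and CNOT8 deadenylases, and found in the peak lists by their Ensembl gene IDs through GENCODE release 29. All 5 had peaks in both libraries. Of 20048 gene IDs with a peak in either, 18035 had one in replicate 1 and 18089 in replicate 2. Most listed gene IDs thus had peaks in both. The members held 47 of 96682 distinct peaks in replicate 1 and 43 of 105125 in replicate 2. Both libraries belong to 1 group labelled TRACER, a word the labels do not explain. They were made from cytoplasmic RNA of HEK293T cells, a human embryonic kidney line, given doxycycline at 3 ug/mL for 24 hours. The labels name no introduced gene, no untreated or input library and no separate cultures, so no comparison between conditions was possible and the spread between the libraries may be technical. The series concerns RNA sequences tied to the CCR4-NOT complex.

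CCR4-NOT is the main cytoplasmic complex that shortens the poly(A) tails of messenger RNA, a step that comes before translation stops and the RNA is destroyed. BTG and TOB proteins share an N-terminal domain that binds CNOT7 or CNOT8, the catalytic subunits of the Caf1 type, and through other partners, among them cytoplasmic poly(A)-binding protein, they bring the deadenylase to messages. They restrain cell proliferation, and several are themselves made from short-lived, quickly induced messages. The peaks described here lie on the RNAs of these genes and say nothing about their proteins.

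Peaks were listed for each library on its own, and each carries a whole number of reads that is not normalised. Reads summed over all distinct peaks were 1585446 in replicate 1 and 1663907 in replicate 2, with a median of 6 reads a peak in each. A read may be counted in more than 1 peak, so these sums are not sequencing depth, and the intervals below cover counting error only. Of 7 genes that HEK293 cells are known to express, 6 had peak reads in both libraries and KRT8 had 0 and 5. None of 8 markers of liver, blood, pancreatic, muscle or glial cells had reads in both, and the highest value was 4 reads.

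The 5 genes together held 661 reads in replicate 1 and 889 in replicate 2. BTG1 had the most, with 226 and 276 reads in 10 peaks in each library. BTG3 followed with 114 and 177 reads in 8 peaks each, then TOB1 with 137 and 130 reads in 11 and 7 peaks, TOB2 with 94 and 161 in 8 and 9, and BTG2 with 90 and 145 in 10 and 9. TOB1 was the only member with fewer reads in replicate 2. The ratio of replicate 2 to replicate 1 ran from 0.949 for TOB1 to 1.71 for TOB2, beside 1.05 for the summed reads of all peaks.

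Per length the order was different. BTG3, the shortest of these mRNAs at 1485 nt, led with 76.8 and 119 peak reads per 1000 nt of its representative transcript (98.0 ± 30, SD, n = 2). TOB1 had 61.5 and 58.3 (59.9 ± 2.22), BTG1 48.3 and 59.0 (53.6 ± 7.55), BTG2 33.2 and 53.5 (43.3 ± 14.3) and TOB2 20.6 and 35.3 (28.0 ± 10.4). Within each library BTG3 was above all other members, BTG1 was above BTG2, and BTG2 was above TOB2, while TOB1 and BTG1 changed places between the libraries. Across libraries only BTG3 did not overlap with the next gene in the order. The median over all protein-coding genes with a peak was 10.1 and 12.5 reads per 1000 nt. By this measure BTG3 ranked 1240 of 12237 genes in replicate 1 and 919 of 12327 in replicate 2, and TOB2, the lowest member, 4015 and 3038.

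**Figure D1:**
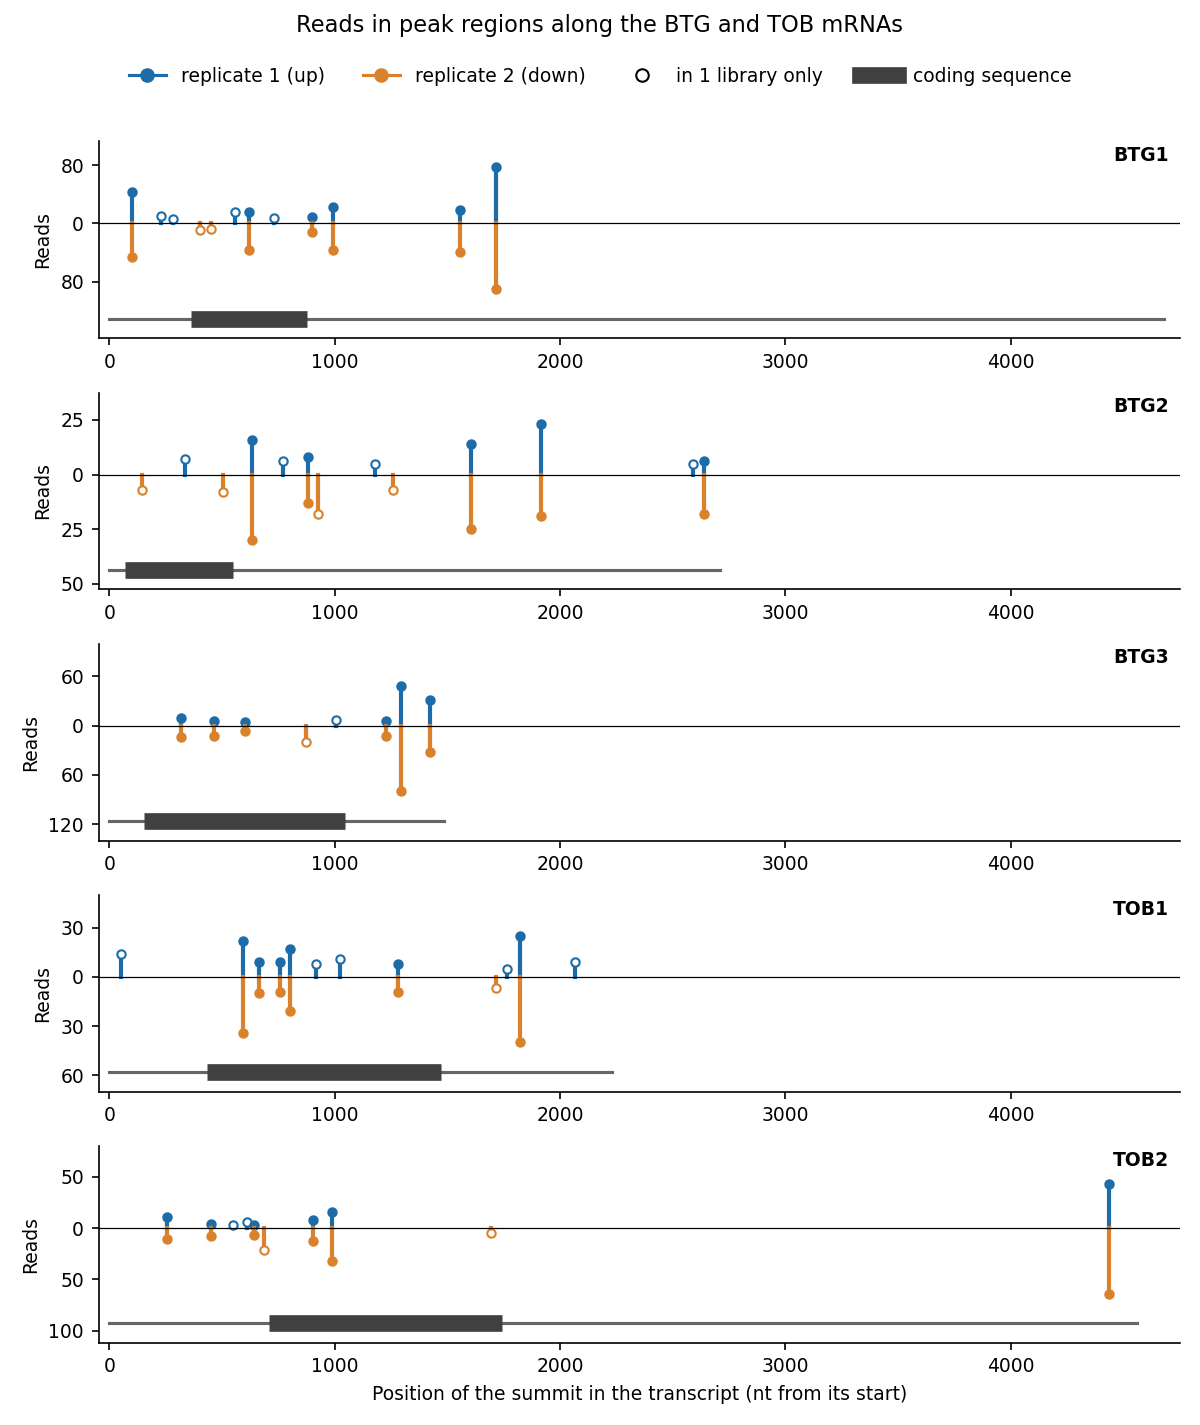
Reads in each peak region (vertical axis, replicate 1 upward and replicate 2 downward) against the position of its summit in the representative transcript in nt, with the coding sequence as a dark bar and white points for regions in 1 library only. BTG1 carries its strongest region 838 nt after the stop codon and no region beyond it, while the only 3′ UTR region of TOB2 sits near the end of the transcript.

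Peaks of the 2 libraries that shared at least 1 nt were joined into regions. The members had 55 regions, of which 29 held a peak in each library and 26 in 1 library. The shared regions carried 81.2% of the members' peak reads in replicate 1 and 87.6% in replicate 2, and their strongest summits lay a median of 3 nt apart. By gene the share of reads in shared regions ran from 65.7% for TOB1 to 93.9% for BTG3 in replicate 1. In replicate 2 it ran from 72.4% for BTG2 to 94.6% for TOB1. The largest region seen in only 1 library held 21 reads. The same figures over all genes are not given here, so these do not show how the members compare with other genes. Of the 29 shared regions, 14 lay in 3′ UTRs, 11 in coding sequence (CDS) and 4 in 5′ UTRs. All 5 members had at least 1 shared 3′ UTR region. This was so for 49.7% of all protein-coding genes with a peak, for 69.5% of those with at least 10 peak reads in each library, and for 53.1% of the latter set when 1 transcript a gene set the regions.

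The share of a gene's peak reads in its 3′ UTR set BTG2 and BTG3 at one end and TOB1 at the other. It was 92.2% and 89.7% for BTG2 (90.9 ± 1.82, SD, n = 2), 75.4% and 70.1% for BTG3 (72.7 ± 3.81), 57.1% and 64.1% for BTG1 (60.6 ± 4.99), 45.7% and 39.8% for TOB2 (42.7 ± 4.24) and 28.5% and 36.2% for TOB1 (32.3 ± 5.44). With all peaks, the libraries did not overlap between any pair of neighbours in this order. With peaks of at least 10 reads alone, BTG1 and TOB2 did overlap. The members' median was 57.1% in replicate 1 and 64.1% in replicate 2. Over all 8890 protein-coding genes with at least 10 peak reads in each library the median was 15.0% and 14.3% with 1 transcript a gene. It was 35.7% and 34.9% when any annotated transcript could place a peak in a 3′ UTR, whereas the members' shares were the same under both. At least 50% of reads lay in the 3′ UTR in both libraries for 3 of 5 members, BTG1, BTG2 and BTG3, beside 13% of those genes with 1 transcript and 30.3% with all. These shares do not allow for the length of the regions.

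**Figure D2:**
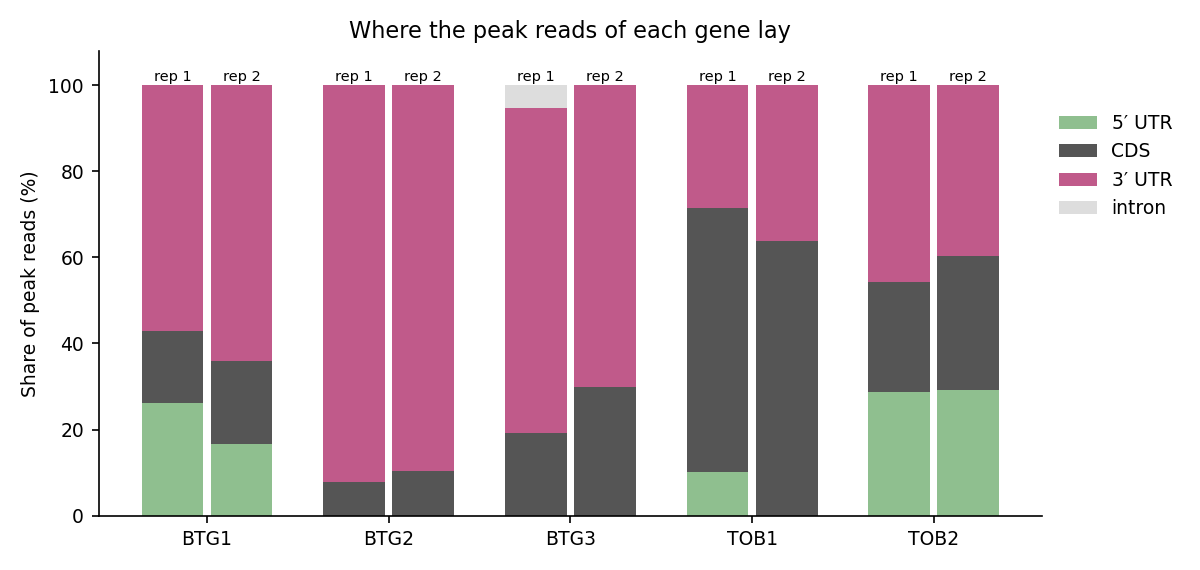
Share of each gene's peak reads (vertical axis, %) in the 5′ UTR, CDS, 3′ UTR and intron, with replicate 1 left of replicate 2. BTG2 had about 9 in 10 of its reads in the 3′ UTR in each library, and TOB1 had most of its reads in the CDS.

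Per nt of each region, only BTG2 and BTG3 were denser in the 3′ UTR than in the CDS in both libraries, by ratios of 2.61 and 1.91 for BTG2 and 7.92 and 4.74 for BTG3. That is 2 of 5 members, beside 20.6% of 7734 protein-coding genes that could be scored. The ratio was under 1 in both libraries for TOB1 (0.637 and 0.776), TOB2 (0.658 and 0.470) and BTG1 (0.461 and 0.453). Part of the TOB2 3′ UTR shares sequence with another gene, so peaks there may be missing, as set out below. The 3′ UTR of BTG1 is the longest of the 5, at 3802 nt, and peaks covered 5.55% and 5.68% of it.

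**Figure D3:**
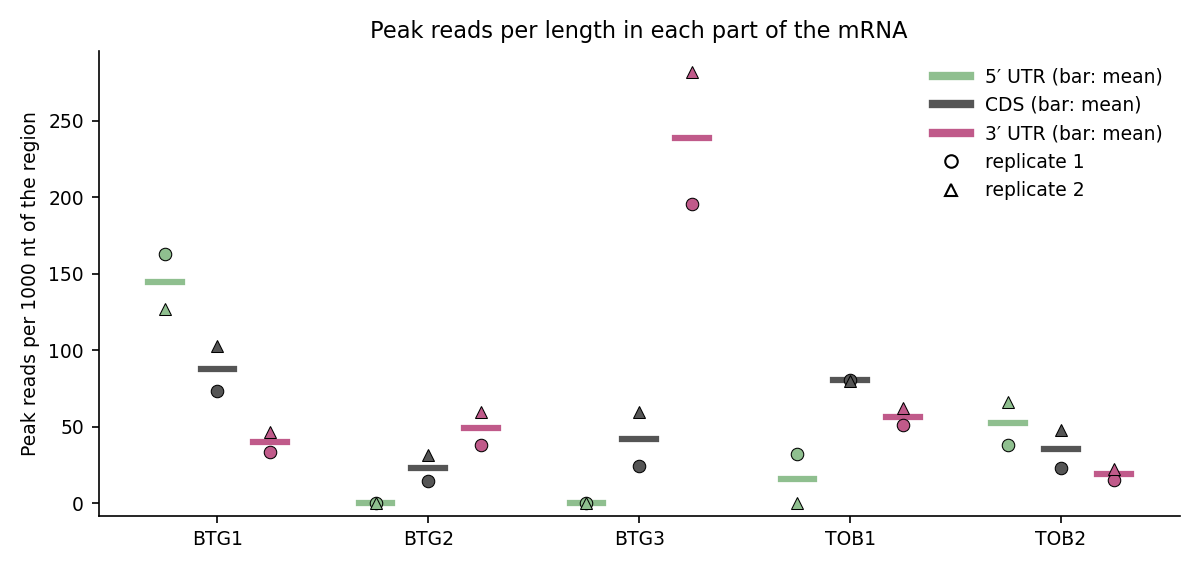
Peak reads per 1000 nt (vertical axis) in the 5′ UTR, CDS and 3′ UTR of the representative transcript, with replicate 1 as circles, replicate 2 as triangles and the mean as a bar. The 3′ UTR of BTG3 stands highest at 195 and 282 reads per 1000 nt, and the densest part of BTG1 is its 5′ UTR at 163 and 127.

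BTG1 (ENSG00000133639, chr12:92140278-92145897, minus strand) encodes a protein that holds lymphocytes in quiescence together with BTG2. Its strongest region, chr12:92143187-92143284 in the 3′ UTR, held 78 and 90 reads. The summits of the libraries fell on the same base there, 838 nt after the stop codon. The 30 nt around that summit (chr12:92143227-92143256, minus strand, GENCODE 29 transcript on GRCh38) are shown because they hold the core of a Pumilio site, in capitals, without the last base of the full element.
BTG1 3′ UTR summit: uaaauuaugaacuggUGUAAAUuuguacag
Of the other shared 3′ UTR regions of BTG1, the one 679 nt after the stop codon held 19 and 39 reads, the one at 117 nt 23 and 36, and the one at 23 nt 9 and 12. No peak of either library lay beyond base 893 after the stop codon, so the last 2909 nt, 76.5% of the annotated 3′ UTR, were empty. Of 3481 genes with a 3′ UTR of at least 1000 nt and a shared region in it, 26.4% had more than 50% of the UTR beyond the last peak. The first of 7 poly(A) signals (AAUAAA) in this UTR began at base 926, after a gap of 32 nt from the last peak. LINC01619, which overlaps BTG1 on the same strand and shares sequence with this stretch, had 0 peak reads. Whether the longer form of the RNA is made in these cells was not tested.

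BTG1 also had the strongest 5′ UTR region of the family. At chr12:92145754-92145844 it held 43 and 46 reads, with summits 1 nt apart, 102 nt from the start of the transcript. The 5′ UTR held 26.1% of BTG1 reads in replicate 1 (exact 95% interval 20.5 to 32.3) and 16.7% in replicate 2 (12.5 to 21.6). With 145 ± 25.4 reads per 1000 nt (SD, n = 2) it was denser than the CDS, 88.2 ± 20.6, and the 3′ UTR, 40.2 ± 8.93, and the 3 regions did not overlap over the libraries. The summit window, chr12:92145781-92145810, held none of the motifs searched and was 46.7% G.
BTG1 5′ UTR summit: ucgaaugcugcggagcuggaggcggaggca

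BTG2 (ENSG00000159388, chr1:203305491-203309602, plus strand) encodes a protein induced by p53 and growth factors. Its reads were divided among several regions of the 3′ UTR of 2164 nt, with 5 shared regions and none in the CDS or 5′ UTR. From the stop codon on, the shared regions held 16 and 30, 8 and 13, 14 and 25, 23 and 19, and 6 and 18 reads. The exact 95% interval of the 3′ UTR share was 84.6 to 96.8% in replicate 1 and 83.5 to 94.1% in replicate 2. The CDS had 7 and 15 reads, in peaks that were not shared. With peaks of at least 10 reads alone, 3 of its shared 3′ UTR regions remained.

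Sites for the miR-92 family lay under both libraries' peaks in BTG2 and TOB2. MicroRNAs guide Argonaute and TNRC6 proteins to sites that pair with their seed, bases 2 to 8, and TNRC6 proteins bind CCR4-NOT. In BTG2 both of its sites were covered, 4 nt and 6 nt downstream of the summit, in the regions with 23 and 19 reads and with 14 and 25 reads. In TOB2 the only site was covered, 12 nt upstream of the summit in the region with 43 and 64 reads. The site, in capitals, is GUGCAAU at chr1:203308497-203308503 and chr1:203308808-203308814 in BTG2 (plus strand) and at chr22:41433624-41433630 in TOB2 (minus strand), each shown with 11 nt on either side.
BTG2 first site: ucucagucacuGUGCAAUaugcccccugg
BTG2 second site: gucguagacuuGUGCAAUauauacuguug
TOB2 site: uucagaauguuGUGCAAUauuuuggaaug
The RefSeq table (GRCh38.p14) held 6 mature microRNAs with this seed, of which 3 are shown with the seed in capitals.
miR-92a-3p: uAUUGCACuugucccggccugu
miR-25-3p: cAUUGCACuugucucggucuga
miR-32-5p: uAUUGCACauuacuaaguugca
Single sites in BTG1, 2783 nt after the stop codon, and in TOB1, 645 nt after it, were under no peak. In all, 3 of 5 sites in the members were covered in both libraries. The background was 4.59% of 2419 such sites in all 3′ UTRs of protein-coding genes with a peak, and 7.48% of 1096 in 1 transcript of each gene with at least 10 peak reads in each library. With 5 sites, nothing can be read from the count covered against these backgrounds. A match to 7 letters is no evidence that the microRNA binds there.

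BTG3 (ENSG00000154640, chr21:17593653-17612947, minus strand), whose protein is also called ANA, was the member with the densest 3′ UTR. Its 440 nt carried 86 and 124 reads, and 42.7% of its bases lay under peaks of both libraries, beside 6.92% for the members together and 2.20% for 1 transcript of each scored gene. Its shared 3′ UTR regions held 49 and 80, 31 and 32, and 6 and 12 reads, with summits 189, 60 and 259 nt before the transcript end. The region with 49 and 80 reads, chr21:17593749-17593880, joined 2 peaks of each library, and the strongest summits of the libraries lay 64 nt apart, so the 189 nt are those of replicate 2. The last region ended 19 nt before the transcript end and reached into the last poly(A) signal.

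The 3′ UTR of BTG3 held AU-rich elements, the sequences through which proteins such as TTP and AUF1 shorten the life of many induced messages. Both of its UAUUUAU heptamers were covered in each library, at chr21:17593842-17593848 and chr21:17593738-17593744 on the minus strand. The BTG2 heptamer at chr1:203307539-203307545, plus strand, was covered too. They are printed with the heptamer in capitals, to set their contexts side by side.
BTG3 first heptamer: uuggacuugagUAUUUAUauauugugcau
BTG3 second heptamer: cguauguaaguUAUUUAUauacaaggaaa
BTG2 heptamer: aaaugaagagcUAUUUAUauauauuauuu
The first BTG3 heptamer was centred 3 nt upstream of the strongest summit of replicate 2, while the strongest summit of replicate 1 in that region lay 64 nt from that summit. The second was centred 28 nt upstream of its region's strongest summit and that of BTG2 18 nt downstream. Single heptamers in BTG1 and TOB2 were under no peak. This made 3 of 5 heptamers covered in both libraries, beside 2.16% of 9791 in all 3′ UTRs and 3.83% of 4807 in the transcripts of scored genes. For the pentamer AUUUA, which lies within the heptamer, it was 7 of 17, beside 1.38% of 72049 and 2.28% of 34503. Of the 7 covered pentamers, 3 were in the densely covered 3′ UTR of BTG3, as were 2 of the 3 covered heptamers. With 5 heptamers in the members, nothing can be read from their count against the background.

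The remaining shared 3′ UTR region of BTG3, chr21:17593894-17593926, held 6 and 12 reads and the only miR-17 family site of the members, at its upstream edge (chr21:17593920-17593926, minus strand).
BTG3 site: aaaaaauauauGCACUUUagauauugaua
miR-17-5p: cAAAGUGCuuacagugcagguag
The table held 8 microRNAs with this seed. Across all 3′ UTRs 2.57% of 5755 such sites were covered in both libraries, and 4.23% in scored transcripts.

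In the CDS of BTG3, the 3 shared regions were small, with 10 and 14, 6 and 12, and 5 and 7 reads, and each had an edge within 2 nt of an exon junction. In replicate 1 the summit of the middle one fell outside the annotated exon, so its 6 reads, 5.26% of the gene's, counted as intron. The CDS held 19.3% of BTG3 reads in replicate 1 and 29.9% in replicate 2. The larger share in replicate 2 went with a region of 20 reads, 173 nt before the stop codon, that replicate 1 did not list.

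TOB1 (ENSG00000141232, chr17:50862223-50867978, minus strand) and TOB2 (ENSG00000183864, chr22:41433492-41447023, minus strand) encode the larger proteins of the family, whose C-terminal parts bind poly(A)-binding protein. TOB1 was the only member with most of its reads in the CDS, 61.3% in replicate 1 (exact 95% interval 52.6 to 69.5) and 63.8% in replicate 2 (55.0 to 72.1). The CDS had 80.9 and 80.0 reads per 1000 nt, nearly the same total in each library, though from different regions. Regions of 8 and 11 reads in replicate 1 were not listed in replicate 2. The CDS held 5 shared regions, the strongest with 22 and 34 reads at chr17:50863838-50863888. Its summit window, chr17:50863842-50863871, is shown because no other CDS region of the 5 genes had more reads over both libraries. It held none of the motifs searched.
TOB1 CDS summit: auacaaaggaucgggguuuagauguauaca
The only shared 3′ UTR region of TOB1, chr17:50862601-50862669, held 25 and 40 reads, 352 nt after the stop codon, and contained 2 AUUUA pentamers 29 nt and 34 nt upstream of the summit. In replicate 1 alone, a region with 14 reads lay in the 5′ UTR.

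TOB2 had 1 region in its 3′ UTR of 2819 nt, at chr22:41433581-41433641, with 43 and 64 reads. It was the strongest region of the gene, 2696 nt after the stop codon and 123 nt before the transcript end, and held the miR-92 family site shown above. Of its 20-nt stretches, 52.4% were also found in AC007228.1, a non-coding RNA gene of chromosome 19 that itself had 5 and 12 peak reads in all, so some reads could belong to either gene. Over the whole TOB2 transcript, AC007228.1 shared 840 of 4542 such stretches, between transcript positions 3230 and 4559. How reads matching both genes were treated is not given, so the lack of other peaks there may not show a lack of reads. The 3′ UTR share, the 3′ UTR density and the rank per length of TOB2 given above carry the same limit. Of 14 shared 3′ UTR regions of the members, 4 had their summit within 200 nt of the transcript end, 2 of them in BTG3 and 1 each in BTG2 and TOB2. The figure over 10355 such regions of all genes was 20.5%. The limit of 200 nt, the 50% limit on empty UTR and the 10% limit on 5′ UTR reads were set after the peaks had been looked at.

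The 5′ UTR of TOB2 held 28.7% of its reads in replicate 1 and 29.2% in replicate 2, a total of 27 and 47 reads. Of these, 3 shared regions held 11 and 11, 4 and 8, and 3 and 7 reads, and 2 regions of 6 and 3 reads were in replicate 1 only. It had 38.2 and 66.5 reads per 1000 nt, against 23.2 and 48.3 for the CDS, and was thus the denser of the 2 in each library, although the values overlapped across libraries. In replicate 2 this order depended on a region of 21 reads across the start of an exon, chr22:41437332-41437408, which replicate 1 did not list. The peak numbers of TOB2 in replicate 1 skip 1 number between the peaks on either side of that place, and no value for it was analysed here. Skipped numbers were common, in 4784 genes in replicate 1 and 4811 in replicate 2, and their reason is not known. Together with BTG1, this made 2 of 5 members with at least 10% of reads in the 5′ UTR in both libraries, beside 17.7% of scored genes. BTG2 and BTG3 had 0 reads there, which allows a share of up to 4.02% and 2.51% for BTG2 and 3.18% and 2.06% for BTG3 (exact 95% limits). Their 5′ UTRs are the shortest of the 5, at 71 nt and 154 nt, beside 362 nt in BTG1 and 707 nt in TOB2.

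None of the 4 full Pumilio elements (UGUANAUA) in the members' 3′ UTRs was under a peak of either library. Pumilio proteins bind this element and bring CCR4-NOT to messages. All 4 were in BTG1, and 3 of them lay in the stretch beyond the last peak. Across all 3′ UTRs of protein-coding genes with a peak 13.2% of 7123 elements were covered in both libraries, and 20.2% of 3917 in the transcripts of scored genes. The 7-letter core UGUANAU, searched after the sequence of the strongest BTG1 summit had been seen, occurred 12 times in the members. Of these, 3 were covered in both libraries, all in BTG1, beside 9.42% of 19983 in all 3′ UTRs and 15.2% of 10250 in scored transcripts. In the strongest BTG1 region, cores lay 4 nt and 23 nt downstream of the summit, and in the region with 19 and 39 reads a core lay 11 nt upstream of it. The core includes every full element. With 4 full elements and 12 cores in the members, nothing can be read from either count against its background.

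Of the other motifs, the cytoplasmic polyadenylation element UUUUAU was covered in both libraries at 3 of 18 places, in BTG1, BTG2 and BTG3 (background 1.8% in all 3′ UTRs and 2.98% in scored transcripts), and AAUAAA at 1 of 14 (1.16% and 1.97%). The reversed Pumilio element AUANAUGU was covered at 0 of 5 places and the GU repeat UGUGUGU at 0 of 7. The backgrounds were 3.21% and 5.53% for the reversed element and 4.63% and 8.02% for the GU repeat. No site of the members was covered for miR-21 (1 site, background 1.12% and 1.2%), let-7 (1 site, 0.885% and 1.26%), miR-16 (3 sites, 2.03% and 2.81%), miR-19 (1 site, 2.7% and 4.04%) or miR-30 (1 site, 2.42% and 3.71%). With so few sites, nothing can be read from these counts. The letters of the miR-101, miR-221 and miR-181 sites were not in these UTRs. Of the 14 shared 3′ UTR regions, 2 held none of the motifs, 1 in BTG1 and 1 in BTG2.

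**Figure D4:**
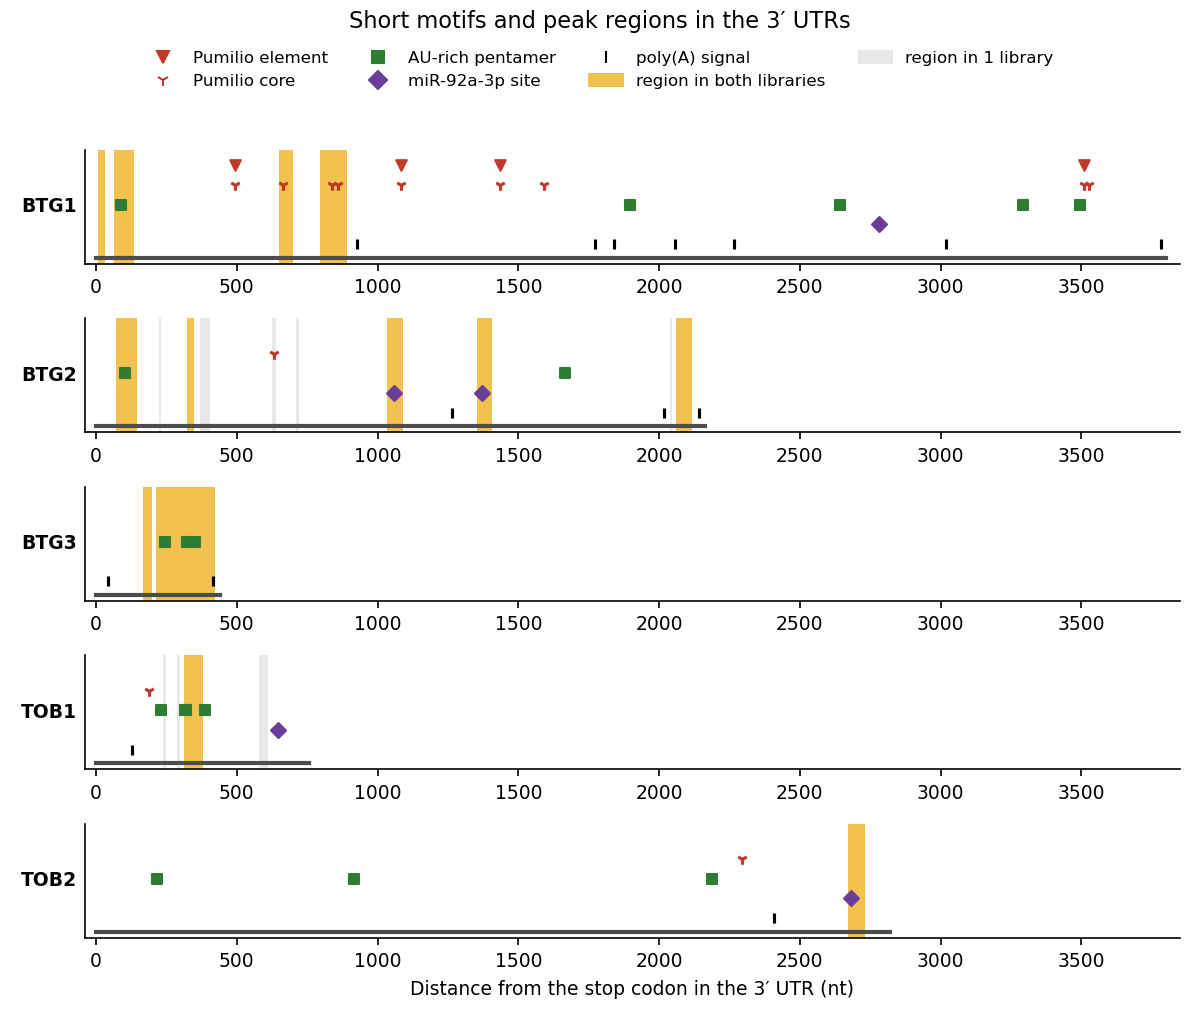
Positions of motifs (markers, 1 row a motif) and of peak regions (yellow in both libraries, grey in 1) along each 3′ UTR, in nt after the stop codon (horizontal axis), with the UTR as a dark line. The miR-92a-3p sites of BTG2 and TOB2 and the AU-rich pentamers of BTG3 lie in yellow regions, and all 4 Pumilio elements of BTG1 lie outside them.

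Most partners of these proteins had fewer of their reads in the 3′ UTR when 1 transcript a gene set the regions, the rule for all shares in this paragraph. Over all scored genes the median in replicate 1 was 15.0% by this rule and 35.7% with all transcripts. The partners' shares with all transcripts are not given here. Of 15 genes of CCR4-NOT subunits, poly(A)-binding proteins and BTG4, 14 had reads in both libraries, and BTG4, the oocyte member of the family, had 0. With 1 transcript a gene, 7 of the 15 had a shared 3′ UTR region and 2, CNOT6 and CNOT6L, had at least 50% of their reads there in each library, beside 53.1% and 13% of scored genes. The median share of the 13 with at least 10 reads in each library was 5.19% and 6.12%, beside 57.1% and 64.1% for the BTG and TOB genes. CNOT7, the deadenylase they bind, had 1374 and 1675 reads with 0.655% and 0% of them in the 3′ UTR. CNOT8, the other one, had 95 and 113 reads with 43.2% and 46.9%. PABPC1, which TOB proteins bind, had 965 and 833 reads with 6.22% and 5.64%.

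By the shares of exonic reads in the 5′ UTR, CDS and 3′ UTR in both libraries, 6 values a gene, the genes most like BTG3 among 1821 with at least 100 exonic reads in each library were SASS6, GAS1 and CMTM6, at Euclidean distances of 1.77, 2.05 and 3.67 percentage points. The nearest to TOB1 were H2AFX, PDZD8 and GALNT1, at 4.60, 8.26 and 9.09. The nearest genes to BTG1 were CRKL, DESI2 and DGCR2, at 8.67, 12.4 and 12.9. BTG2 and TOB2 had too few reads in replicate 1 to be placed.

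Reads of the members could in most places be told from those of related genes. No 20-nt stretch was shared between any of the 5 representative transcripts, and no peak of a member was also listed under another gene. Over the whole transcript, the share of 20-nt stretches also found in other genes was 20.2% for TOB2 and 10.4% for BTG1. It was 5.93% for BTG3, 1.54% for TOB1 and 0.223% for BTG2. Of 38 regions with at least 20 nt of exon, 3 held, wholly within them, any 20-nt stretch found in the transcripts of another gene. They were the TOB2 3′ UTR region above, the TOB2 CDS region with 16 and 32 reads, which shared 37.8% of its stretches with the pseudogene TOB2P1, and the BTG2 region with 16 and 30 reads, which shared 6.90%. TOB2P1 had 0 and 9 peak reads. The pseudogenes BTG1P1 and BTG3P1 had none, and on the strand opposite BTG3 and TOB1 the antisense genes BTG3-AS1 and TOB1-AS1 had 0 and 16 and 3 and 0.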

How the data were processed

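Deposited peak lists of both TRACER libraries were used as the authors made them. Per the names of the deposited files, CLIPper called the peaks in each library after a read filter. Per the submitters' processing notes, cutadapt 4.2, UMI-tools 1.1.4, STAR 2.7.11 and GRCh38 were used, with no role given. The version of CLIPper is not given in the sources used here. Each deposited peak has a p-value, under 0.05 throughout, and each deposited peak name ends in its read number.

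Regions came from GENCODE 29 at the middle of the summit interval of a peak, with the 3′ UTR before CDS, 5′ UTR, non-coding exon and intron. The representative transcript had the longest CDS, then the longest length. Motifs were searched on the sense strand, microRNA sites as the reverse complement of bases 2 to 8. No test was run, since there was 1 group. Intervals are exact binomial. Members, motifs and lists were chosen with earlier results of these data known. The genes to be named were all members, their 15 partners, the 3 nearest genes by pattern, and pseudogenes, antisense or overlapping genes of a member. For 9 partners only counts are given. Scripts were tested on simulated data and ran in Python 3.11.15 with pandas 2.3.3 and scipy 1.17.1. The sequence of 1 uncovered site is not reported here.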

Additional observations from a re-analysis of the deposited data

How the results depend on the processing

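The values were recomputed under 10 settings. Leaving out 1 of 2 libraries could not move a mean beyond their SD, and no member peak was also listed under another gene, so those settings say nothing about stability. With peaks at p at or under 1e-05 the members' median 3′ UTR share became 65.8%, against 60.6%. The core UGUANAU in place of the full Pumilio element, chosen after seeing the data, gave 3 covered places in place of 0. With peaks at p at or under 1e-05, and also with peaks of at least 10 reads, the 3′ UTR share became 100% for BTG2, 80.9% for BTG3 and 53.4% for TOB2, since both settings drop weak peaks. TOB1 then had 96.5 and 97 reads on average. Under both of these limits 5 members had a shared 3′ UTR region and 0 full Pumilio elements were covered. The number of shared 3′ UTR regions fell from 14 to 10 under each limit. It was 15 when peaks had to overlap by at least 50% of the shorter. With peaks of at least 10 reads the shares were 58.8% and 69.7% for BTG1 and 61.4% and 45.4% for TOB2. These genes then overlapped and changed places in replicate 1. Each library alone gave from 661 to 889 reads and a median share from 57.1% to 64.1%. No paired analysis was possible because there was 1 group. Peaks of a few reads limit what could be seen, so an uncovered site is not shown to be unbound.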
